A study of Mus musculus with 12 samples.

Results

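The genotype by LPS interaction at 12 h compares, gene by gene, the change from control cells (M0) to 12 h of lipopolysaccharide (LPS). It asks whether this change was larger or smaller in bone marrow-derived macrophages (BMDM) lacking Treml4 than in wild type (wt) BMDM. It was formed from 8 of the 12 libraries of the series, chosen by their labels as the M0 and M1-12 h libraries of both genotypes, with 2 biological replicates in each of the 4 groups. The gene table listed 43280 genes, of which 12086 reached 1 read per 1e6 reads on genes (CPM) in at least 2 of the 12 libraries and were tested. The wt M0 and Treml4-/- M0 cells received the phosphate-buffered saline vehicle, while the wt M1-12 h and Treml4-/- M1-12 h cells received LPS at 100 ng/ml for 12 h to drive M1 polarization. No library is labelled as a vehicle control at 12 h. A response here may therefore include changes over time in culture, which cannot be told apart from those of LPS. Both genotypes were of the C57BL6 strain, the Treml4-/- cells came from the marrow of Treml4-/- mice, so that every marrow cell lacked the gene, and M-CSF was used to grow the macrophages. The age and sex of the marrow donors are not given in the sources used here, and the labels give each genotype biological replicates 1 and 2 at every time. Same-numbered libraries of a genotype may thus share a culture or a mouse, which is not stated outright, and nothing ties a number in wt to the same number in Treml4-/-. The p-values therefore measure the spread between these libraries, which may be partly technical.

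LPS is recognised by Toll-like receptor TLR4, which signals through MyD88 to NF-kB and through TRIF to IRF3. The NF-kB arm turns on cytokines and chemokines, and the IRF3 arm induces interferon beta, which then acts back on the macrophage through its own receptor and drives the interferon-stimulated genes. TREML4 belongs to the TREM family of immunoglobulin-like myeloid receptors, several of which signal through the adaptor DAP12 (Tyrobp) and modify Toll-like receptor signalling. The interaction is a difference of differences. It is the log2 response of Treml4-/- cells (M1-12 h minus M0) minus the log2 response of wt cells, so a positive value means that a gene rose more, or fell less, in Treml4-/- cells.

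Each library held 48008751 to 58500792 reads on genes, so that 1 read was worth 0.0171 to 0.0208 CPM. Macrophage markers dominated in all 12 libraries, with summed levels of 21484 to 28799 CPM at M0 and 10477 to 11646 CPM at 12 h over the 10 markers. The summed level of 10 neutrophil markers at M0 was 136 and 48.8 CPM in the wt libraries and 120 and 160 CPM in the Treml4-/- libraries, and the summed level of 29 cell cycle genes at M0 was 3126 and 1800 CPM in wt against 3230 and 3234 CPM in Treml4-/-. In both lists wt M0 replicate 2 was the lowest of the M0 libraries. Dendritic cell markers summed to 57.5 and 151 CPM in wt M0 against 67.6 and 70.4 CPM in Treml4-/- M0, with wt M0 replicate 2 the highest. At 12 h they summed to 263 and 486 CPM in wt against 279 and 304 CPM in Treml4-/-, with wt replicate 2 again the highest. The markers of B cells, T and NK cells, mast cells, fibroblasts and erythroid cells summed to at most 29.7 CPM per list in the M0 and 12 h libraries. Fewer cells of a type and less RNA per cell cannot be told apart in bulk libraries. Replicates differed beyond counting error in every group, the chi-square divided by its degrees of freedom being 12.05 and 12.69 in Treml4-/- M0 and M1-12 h and 42.2 to 55.6 in the other groups. Results that rest on wt M0 replicate 2 are given with and without it.

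Most of the measured transcriptome changed between M0 and 12 h of LPS in both genotypes. In wt cells 1962 genes (16.2%) rose and 7302 (60.4%) fell over 12 h, and in Treml4-/- cells 1945 (16.1%) rose and 7204 (59.6%) fell, at an adjusted p under 0.05 and a change of at least 1.4-fold (limma, Benjamini-Hochberg adjustment). The excess of falls depended on the scaling. With median of ratios scaling 4042 genes rose and 3873 fell in wt and 3989 rose and 3824 fell in Treml4-/-, and with quantile normalization 3558 rose and 4350 fell in wt and 3584 rose and 4298 fell in Treml4-/-. The median log2 response of all genes was -0.77 in wt and -0.74 in Treml4-/- on the CPM scale, and median of ratios scaling moved the wt median to -0.01. Falls in CPM are therefore relative to that shift, which was shared by both genotypes.

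Of the 12086 genes, 1 (0.00827%) passed the interaction test at 12 h, and it was Pydc3. The next lowest adjusted p of any gene was 0.9995 (limma, Benjamini-Hochberg adjustment). At an unadjusted p under 0.05, 288 genes (2.38%) had a higher response in Treml4-/- and 174 (1.44%) a lower one, in all 462 genes, which is under 5% of those tested. Of the 9610 genes called in at least 1 genotype, 8803 were called in both, all 8803 in the same direction, 461 in wt alone and 346 in Treml4-/- alone. Being called in 1 genotype alone is no test of a difference. The call count rested on the libraries of wt M0. Without wt M0 replicate 1 it was 33, of which 30 had a lower response in Treml4-/-, and without wt M0 replicate 2 it was 3, all higher in Treml4-/-, namely Pydc3, the complement gene C4b and the fibronectin gene Fn1. C4b and Fn1, singled out after their values were seen, had 13.6 and 37.4 CPM in wt M0 replicate 1 against 0.354 and 1.77 CPM in wt M0 replicate 2. It was 0 on the deposited log2 CPM values, where 461 genes had an unadjusted p under 0.05, and 0 with voom on the recovered reads, where 422 had.

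**Figure D1:**
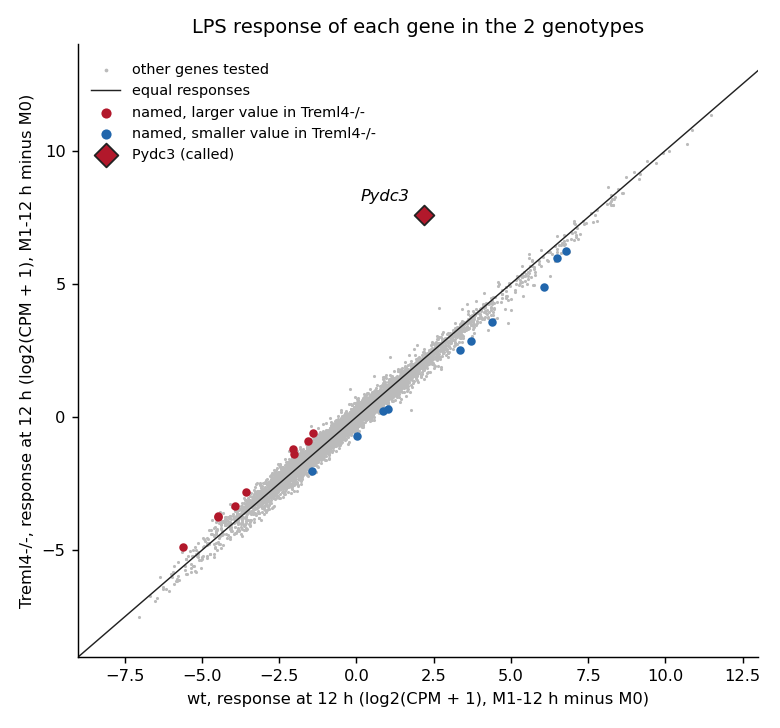
Log2 response to LPS at 12 h (M1-12 h minus M0, log2(CPM + 1)) in wt on the horizontal axis and in Treml4-/- on the vertical axis, 1 point for each of the 12086 genes tested, with Pydc3 and the other named genes marked. Most genes lie near the line of equal responses, while Pydc3 lies far above it at 2.20 in wt and 7.58 in Treml4-/-.

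The precision bounded how far the responses could differ on the log2(CPM + 1) scale. The median absolute interaction was 0.12 on the log2 scale, a 1.08-fold ratio of the responses, and 99% of genes were within 0.64. The median standard error was 0.18 and the 95% confidence interval reached a median of 0.40, or 1.32-fold, to either side. For 11353 genes (93.9%) the whole interval lay within 2-fold in either direction, and for 4637 (38.4%) it lay within 1.4-fold. Among the 2299 genes that were called in both genotypes and moved over 4-fold in wt, the interval lay within 2-fold for 1973. These are intervals of single genes on the log2(CPM + 1) scale. For genes that are low in a group they do not bound the ratio of the responses in CPM. Calls needed an adjusted p as well, and of the 361 genes past 1.4-fold only Pydc3 passed, so that differences well above 1.4-fold could go uncalled at this replication. The plot of the wt response against the Treml4-/- response shows the same spread gene by gene.

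Treml4 itself checks the labels. It is encoded at chr17:48264295-48275360 on the plus strand (GRCm38). In wt cells it had 8.35 and 6.57 CPM at M0 and 9.82 and 13.2 CPM at 12 h, and no read was counted in any of the Treml4-/- libraries, so the wt level was at least 122-fold higher at M0 and at least 184-fold higher at 12 h, taking 3 reads per library as the floor. The Treml4 interaction of -0.56 (SE 0.20) restated the wt response of 0.56, since a gene with no reads in Treml4-/- has no response there. It was -1.36 with median of ratios scaling and -0.75 to -0.36 with a library left out, the extremes being without wt M1-12 h replicate 1 and without wt M1-12 h replicate 2.

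Pydc3 was the gene whose response to LPS differed between the genotypes. The annotation names it Ifi208, a member of the interferon-inducible PYHIN family of pyrin-domain genes, at chr1:173673675-173698395 on the plus strand (GRCm38). In wt cells it had 0.0193 and 0.0787 CPM at M0, which is 5 reads in all, and 4.01 and 3.61 CPM at 12 h. In Treml4-/- cells it had 0.550 and 0.636 CPM at M0, which is 61 reads, and 307 and 301 CPM at 12 h. Both 12 h libraries of each genotype were far above their M0 libraries, and the Treml4-/- libraries were above the wt libraries at each time with no overlap. On the log2(CPM + 1) scale the 12 h response was 2.20 in wt and 7.58 in Treml4-/-, and the interaction was 5.39 (SE 0.19, 95% interval 4.97 to 5.80), with a limma adjusted p of 1.73e-07 by Benjamini-Hochberg.

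The size of the Pydc3 interaction depended on how the M0 reads were treated, 5 in wt and 61 in Treml4-/-. The 1 CPM added before taking logs was above every M0 level in both genotypes. It shrinks the M0 difference between the genotypes and so enlarges the interaction. As a ratio of summed reads scaled by library size, Pydc3 rose 78.3-fold in wt (exact counting interval 33.3 to 243) and 511-fold in Treml4-/- (398 to 668). The Treml4-/- level was 12.2-fold the wt level at M0 (4.96 to 39.0) and 79.7-fold at 12 h (72.1 to 88.3). These intervals cover counting error only. The interaction was 4.04 with a pseudocount of 0.1 CPM, 2.58 on the deposited log2 CPM values and 2.74 with voom, with adjusted p = 0.867 and 1.00 for the last pair (limma, Benjamini-Hochberg adjustment), so the direction was the same and the call was lost. It was 5.33 to 5.45 when each of the 8 libraries was left out in turn.

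Pydc4, annotated as Ifi213, lies on the same chromosome as Pydc3 but on the other strand, at chr1:173566283-173599274 (GRCm38), and behaved differently. It had 0.366 and 0.472 CPM in wt M0, 0.428 and 0.692 CPM in Treml4-/- M0, 175 and 209 CPM in wt at 12 h and 193 and 183 CPM in Treml4-/- at 12 h. The genotypes overlapped at both times, with an interaction of -0.16 (95% interval -1.0 to 0.69). The promoters of this pair are shown because they are nearly the same sequence while the responses were not. Each window runs from 250 bases before to 50 after the gene start (RefSeq, GRCm38.p6, the Pydc3 window at chr1:173673415-173673714 on the plus strand and the Pydc4 window at chr1:173599223-173599522 on the minus strand), and capitals mark a match to GAAANNGAA, the core of the interferon-stimulated response element, where N is any base.
Pydc3 promoter: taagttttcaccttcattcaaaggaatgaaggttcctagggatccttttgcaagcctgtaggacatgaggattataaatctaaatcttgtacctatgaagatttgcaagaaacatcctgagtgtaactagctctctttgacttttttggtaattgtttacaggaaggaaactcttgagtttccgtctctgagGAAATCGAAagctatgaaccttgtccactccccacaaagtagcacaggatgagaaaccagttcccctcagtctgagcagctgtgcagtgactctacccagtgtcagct
Pydc4 promoter: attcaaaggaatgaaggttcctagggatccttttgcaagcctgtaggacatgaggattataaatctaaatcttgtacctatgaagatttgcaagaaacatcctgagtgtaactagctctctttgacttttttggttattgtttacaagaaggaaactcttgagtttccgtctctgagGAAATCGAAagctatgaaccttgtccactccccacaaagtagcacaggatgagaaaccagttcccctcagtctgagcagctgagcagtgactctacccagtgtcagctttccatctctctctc
Shifted by 15 bases, the windows were equal at 282 of 285 positions (98.9%) and differed at 3. Each held the same match, starting 58 bases before the Pydc3 start and 73 bases before the Pydc4 start. Searched on both strands, the motif was present in 8.56% of all 32851 promoter windows of this length. By gene, at least 1 window held it for 8 of the 10 PYHIN genes with an entry, beside 9.76% of all 27025 genes. A match is a description of the letters and not evidence of binding. Reads from such near copies can be split between genes by the counting, and how the submitters' counting treated them is not given in the sources used here.

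The other PYHIN genes, sensors of nucleic acids and regulators induced by interferon, responded to LPS in both genotypes. All 11 members tested rose in wt and in Treml4-/-, beside 16.2% and 16.1% of all genes. Apart from Pydc3, the 10 interactions ran from -0.67 to -0.05, so each was on the lower side in Treml4-/-, beside 46.0% of all genes, and none passed the test. Over all 11, the median of Treml4-/- minus wt was 0.16 at M0 and -0.06 at 12 h. Without wt M0 replicate 1, and likewise without wt M0 replicate 2, 9 of the 11 were lower. Pyhin1, annotated as Ifi209, had the lowest value of -0.67 (95% interval -1.61 to 0.28), with 4.82 and 4.66 CPM in wt M0, 6.76 and 6.92 in Treml4-/- M0, 705 and 639 in wt at 12 h and 614 and 541 in Treml4-/- at 12 h. Aim2, the DNA sensor that assembles an inflammasome, had the smallest rise of those named here, 0.81 in wt and 0.64 in Treml4-/-, and Ifi204, a DNA sensor upstream of STING, rose by 4.21 and 4.02.

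**Figure D2:**
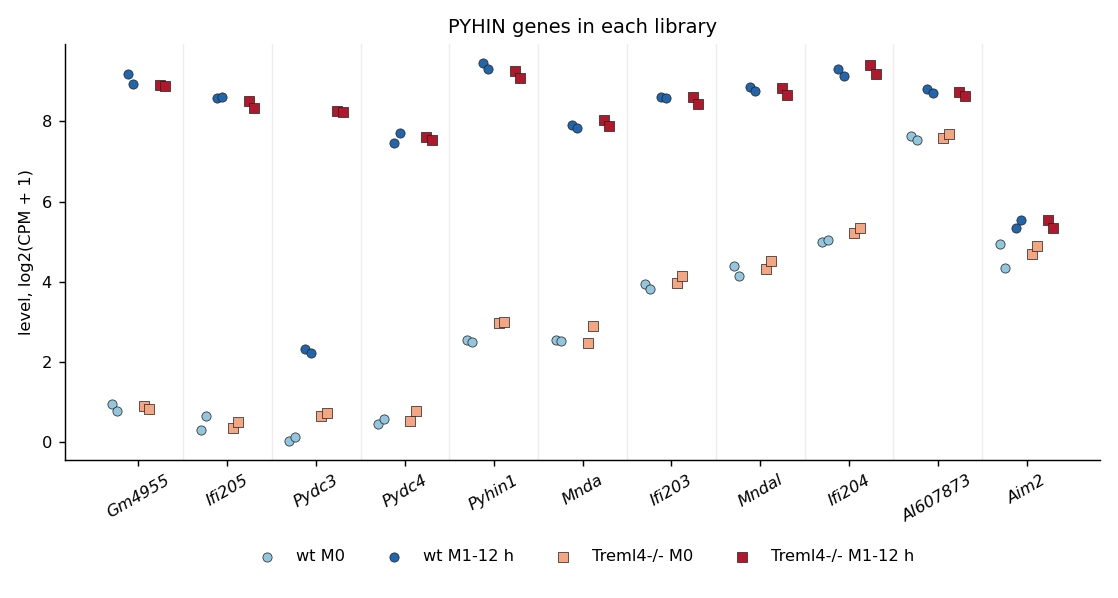
Level of the 11 PYHIN genes as log2(CPM + 1) in each of the 8 libraries, grouped by genotype and time. The 12 h levels of Pydc3 are 4.01 and 3.61 CPM in wt and 307 and 301 CPM in Treml4-/-, while the 12 h levels of Pydc4 overlap between the genotypes.

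Past a 1.4-fold ratio of responses, 143 genes (1.18% of those tested) with a higher and 161 (1.33%) with a lower response in Treml4-/- had same-numbered responses that did not overlap between the genotypes. The 10 with the lowest unadjusted p in each direction are described here. Pydc3 was the only one of these 20 to pass the test, and for each of the others the adjusted p was 0.9995 (limma, Benjamini-Hochberg adjustment), so the values below are a description of candidates.

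The 9 named genes on the higher side other than Pydc3 fell with LPS in both genotypes and fell less in Treml4-/- by these values. Of all genes, 60.4% fell in wt and 59.6% in Treml4-/-. Plexins and regulators of membrane traffic were among them. Plxnd1, a plexin that binds semaphorins, had 434 and 492 CPM in wt M0 and 437 and 429 in Treml4-/- M0, and 18.7 and 21.3 in wt at 12 h against 30.3 and 31.5 in Treml4-/-. The M0 levels overlapped, the 12 h levels did not, and the interaction was 0.70 (SE 0.13). Plxna2, another plexin, had 34.2 and 33.4 CPM in wt M0 and 33.9 and 37.1 in Treml4-/- M0, then 0.671 and 0.457 in wt against 1.65 and 1.84 in Treml4-/- at 12 h, with an interaction of 0.75 (SE 0.16). Agap1 and Asap1, GTPase-activating proteins for Arf, had interactions of 0.74 (SE 0.17) and 0.59 (SE 0.14). Agap1 fell from 129 and 142 CPM to 1.84 and 1.75 in wt, and from 115 and 127 CPM to 3.33 and 3.02 in Treml4-/-. For both plexins and both Arf regulators the 12 h libraries of Treml4-/- were above those of wt.

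Receptors, a kinase and a transporter made up the rest of this side. Tnfrsf11a, which encodes RANK, the receptor for the osteoclast cytokine RANKL, had 84.1 and 87.2 CPM in wt M0 and 67.8 and 79.3 in Treml4-/- M0, and 30.5 and 26.5 in wt against 40.7 and 37.8 in Treml4-/- at 12 h (interaction 0.67, SE 0.14). Ciita, the master activator of MHC class II genes, had 32.4 and 40.2 CPM in wt M0, 32.3 and 33.9 in Treml4-/- M0, 11.9 and 14 in wt at 12 h and 20.5 and 22.8 in Treml4-/- at 12 h, with an interaction of 0.82 (SE 0.19). The fall of these 2 genes in Treml4-/- depended on the scaling, since their Treml4-/- responses of -0.89 and -0.59 became -0.04 and 0.23 with median of ratios scaling, while their interactions stayed at 0.63 and 0.78. Slc36a1, a lysosomal amino acid transporter, and Nuak1, a kinase related to AMPK, had interactions of 0.61 (SE 0.15) and 0.76 (SE 0.16). Rab4a, a GTPase of endosome recycling, differed widely between the genotypes before LPS. It had 10.1 and 11.0 CPM in wt M0 against 2.00 and 1.78 in Treml4-/- M0, and 1.73 and 1.79 against 0.25 and 0.278 CPM at 12 h. Tnfrsf11a and Agap1 were also lower in Treml4-/- M0 than in wt M0, by less but without overlap. The Rab4a interaction of 0.87 (SE 0.19) reversed to -0.24 on the deposited log2 CPM values and to -0.21 with voom.

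Of the 10 named genes on the lower side, 8 rose in wt and 6 rose in Treml4-/-, beside 16.2% and 16.1% of all genes. Irf7, the transcription factor that amplifies type I interferon, had 38.6 and 40.1 CPM in wt M0 and 51.1 and 44.8 in Treml4-/- M0, and 3516 and 3739 in wt against 2881 and 3196 in Treml4-/- at 12 h. Treml4-/- was the higher genotype at M0 and the lower at 12 h, without overlap at either time, and the interaction was -0.53 (SE 0.12). Usp18, the protease that removes ISG15 and damps interferon receptor signalling, rose from 6.94 and 5.90 CPM to 761 and 870 in wt and from 7.64 and 7.61 CPM to 626 and 684 in Treml4-/- (interaction -0.53, SE 0.14). For Usp18, too, the 12 h libraries of Treml4-/- were below those of wt.

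Secreted and adhesion genes carried larger values. Timp1, an inhibitor of matrix metalloproteinases, had 0.906 and 0.590 CPM in wt M0 and 1.12 and 0.991 in Treml4-/- M0, and 110 and 125 in wt against 55.1 and 65.5 in Treml4-/- at 12 h, with an interaction of -1.19 (SE 0.30, 95% interval -1.84 to -0.54). Lipg, which encodes endothelial lipase, had at most 0.0386 CPM in any M0 library and reached 21.4 and 20.0 CPM in wt against 10.5 and 11.8 in Treml4-/- (interaction -0.83, SE 0.19). The Lipg value was -0.47 on the deposited log2 CPM and -0.53 with voom. For both genes the Treml4-/- level at 12 h was below the wt level in each library. Pecam1, an adhesion molecule of leukocytes and endothelium, had 0.771 and 0.275 CPM in wt M0 and 0.876 and 0.767 in Treml4-/- M0, and 13.5 and 15.1 against 9.29 and 9.58 CPM at 12 h. Its interaction of -0.83 (SE 0.21) was -1.07 without wt M0 replicate 1 and -0.59 without wt M0 replicate 2, the lowest of the M0 libraries.

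Mt1, a metal-binding metallothionein, had the lowest unadjusted p of this side, 2.40e-04 (limma). It had 63.6 and 57.1 CPM in wt M0 and 72.9 and 66.7 in Treml4-/- M0, and 127 and 119 in wt against 85.7 and 87.9 in Treml4-/- at 12 h, with an interaction of -0.71 (SE 0.13). Mif, a cytokine that opposes glucocorticoids, had 90.2 and 77.0 CPM in wt M0, 122 and 104 in Treml4-/- M0, 145 and 157 in wt at 12 h and 127 and 134 in Treml4-/- at 12 h (interaction -0.64, SE 0.16). Both genes rose in wt, while their Treml4-/- responses of 0.31 and 0.21 were under 1.4-fold on the CPM scale and became 1.16 and 1.06 with median of ratios scaling. Fosl1, the AP-1 subunit Fra-1, rose from 0.501 and 0.590 CPM to 17.3 and 21.6 in wt and from 1.2 and 0.954 CPM to 14.3 and 13.4 in Treml4-/- (interaction -0.88, SE 0.18). Tspan8, a tetraspanin, fell in both genotypes from at most 3.52 CPM, and Gm10693, from the family of paired immunoglobulin-like receptors, was at or below 1.08 CPM in each of the 8 libraries. The Tspan8 interaction of -0.58 shrank to -0.03 on the deposited log2 CPM and to -0.16 with voom. The 7 paired immunoglobulin-like receptor genes tested had a median interaction of 0.13, with 5 higher and 2 lower in Treml4-/-, and the median was 0.04 without wt M0 replicate 2. Of the named genes, Ciita, Irf7, Timp1, Usp18, Fosl1, Agap1, Asap1 and Tspan8 overlap an annotated gene on the other strand and Rab4a overlaps one on the same strand, and whether the counting used the strand is not given in the sources used here.

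**Figure D3:**
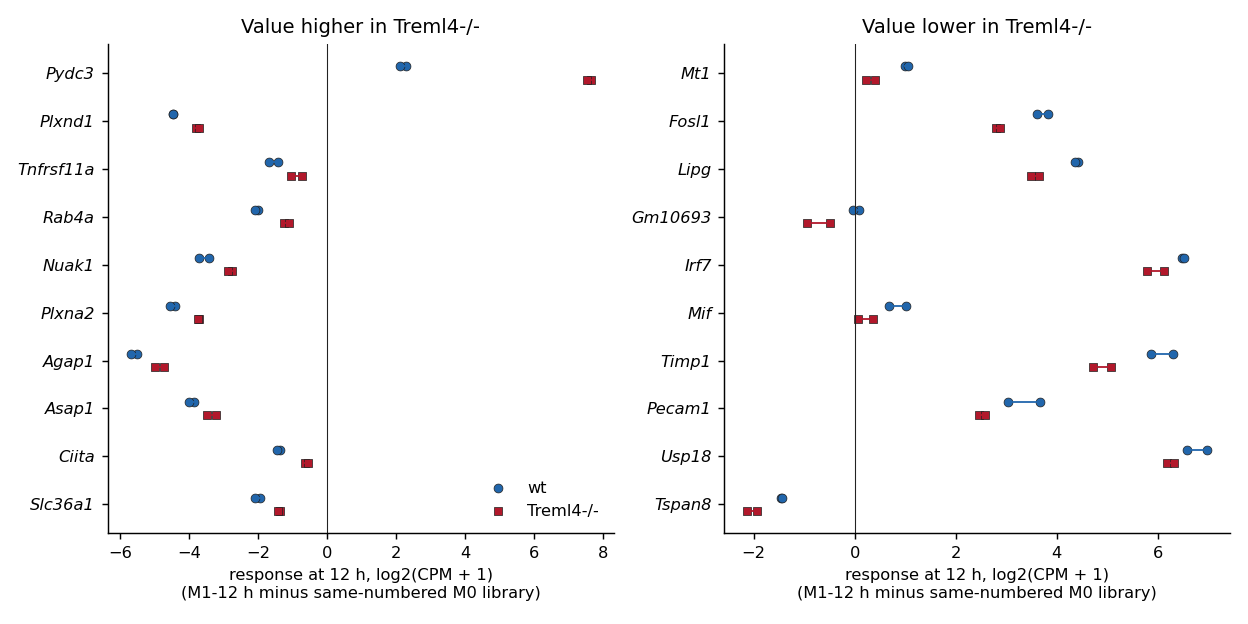
Log2 response at 12 h of the 20 named genes, 1 point for each same-numbered pair of M1-12 h and M0 libraries, wt and Treml4-/- side by side. The points of the genotypes do not overlap for any of the 20 genes, which is how the genes were chosen, and Pydc3 at 2.20 in wt against 7.58 in Treml4-/- is the widest separation.

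The receptor and signalling genes of the LPS pathway showed no called difference in response. Of 26 Toll-like receptor pathway genes tested, 0 had an unadjusted p under 0.05, beside 2.38% higher and 1.44% lower among all genes, and 2 had one when only the 8 libraries were fitted. In a list of this size 0 is near those shares. The median interaction was 0.04 beside 0.02 for all genes, and the 95% interval of all 26 lay within 2-fold. Tlr4, the LPS receptor, had 37.0 and 33.7 CPM in wt M0, 37.8 and 39.5 in Treml4-/- M0, 24.3 and 18 in wt at 12 h and 33.9 and 25.8 in Treml4-/- at 12 h, with an interaction of 0.35 (95% interval -0.22 to 0.93). The endosomal RNA receptor Tlr7 and the adaptor Myd88 had interactions of 0.01 (-0.47 to 0.48) and -0.08 (-0.35 to 0.19). The 27 NF-kB and feedback genes had a median of 0.01, with 13 lower and 14 higher in Treml4-/-, and that median changed sign in 6 of 21 alternative analyses.

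Among 8 TREM family genes and adaptors, 5 had a lower and 3 a higher response value in Treml4-/-, with a median of -0.19. Treml4 is 1 of the 5, and its side was fixed by the deletion. The count was 4 and 4 without wt M0 replicate 1 and 7 and 1 without wt M0 replicate 2. Trem1, an amplifier of inflammatory signalling, had 0.829 and 0.787 CPM in wt M0 and 0.835 and 0.767 in Treml4-/- M0, and 4.34 and 5.76 in wt against 3.17 and 1.84 in Treml4-/- at 12 h. The 12 h libraries did not overlap, and the interaction was -0.80 (95% interval -1.33 to -0.27). Trem2, a lipid receptor of resting macrophages, fell by 3.04 in wt and by 2.90 in Treml4-/-, and Tyrobp fell by 1.5 and by 1.44. Neither Trem2 (-0.24 to 0.52) nor Tyrobp (-0.30 to 0.42) had an interval that excluded equal responses.

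Interferon-stimulated genes rose in both genotypes, with median log2 responses of 5.17 (wt) and 5.14 (Treml4-/-). All 46 members were called as risen in each, beside 16.2% of all genes in wt and 16.1% in Treml4-/-. None passed the interaction test. Of the 46, 37 (80.4%) had a lower and 9 a higher response value in Treml4-/-, beside 46.0% lower among all genes, and the median interaction was -0.16 beside 0.02. At an unadjusted p under 0.05 there were 10 lower (21.7% against 1.44% of all genes) and 0 higher. The 10 were Irf7, Usp18, the RNA-binding antiviral Ifit1, the oligoadenylate synthetase family members Oas1a, Oas1g, Oasl1 and Oasl2, the Z-nucleic acid sensor Zbp1, the RIG-I-like receptor Dhx58 and the ubiquitin-like Isg15. The genotype difference that made up this median was partly at M0, where the median of Treml4-/- minus wt was 0.10, and at 12 h it was -0.05. Genes that rose over 16-fold also leaned to the lower side, as given below.

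Ifit1 had 10.4 and 9.99 CPM in wt M0 and 12.0 and 12.5 in Treml4-/- M0, and 2381 and 2525 in wt against 2206 and 2162 in Treml4-/- at 12 h (interaction -0.41, 95% interval -0.66 to -0.15). Oas1g had 7.48 and 5.70 CPM in wt M0 against 9.96 and 9.52 in Treml4-/- M0, but 137 and 152 against 138 and 149 at 12 h (interaction -0.52, -0.88 to -0.16). For Ifit1 the genotypes were apart at both times, whereas for Oas1g they were apart at M0 and overlapped at 12 h. Rsad2, the antiviral enzyme viperin, reached 11965 and 10949 CPM in wt and 11354 and 11054 in Treml4-/-, with an interaction of -0.18 (-0.55 to 0.19). The list median was -0.23 without wt M0 replicate 1, with 40 of 46 lower, and -0.10 without wt M0 replicate 2, with 31 lower. From the replicate 1 libraries alone it was -0.05, and from the replicate 2 libraries alone -0.29. It was negative in all 21 alternative analyses. Several of these, such as replicate blocks or no minimum fold, could not move it. Promoter windows with GAAANNGAA were found for 23 of the 36 members that had an entry, beside 9.76% of all 27025 genes.

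A lower value in Treml4-/- was also the more frequent one among the genes that rose most, which were not split by pathway. In the 187 genes whose mean response over both genotypes exceeded 16-fold, 143 (76.5%) had the lower value in Treml4-/- and the median interaction was -0.13. That median ran from -0.19 to -0.09 over the alternatives. A lower value was also found in 61.6% of the 674 genes with a mean log2 response of 1 to 2. The share was 69.1% of the 275 genes at 2 to 3 and 74.7% of the 158 genes at 3 to 4. The lean of a list of risen genes is thus to be read beside these shares, and not only beside that of all genes. The median interaction was -0.13 in the 158 genes that rose 8- to 16-fold and 0.03 in the 4092 genes whose mean log2 response lay between -1 and 0. The genes that fell over 16-fold had a median of 0.00 by CPM and -0.17 with median of ratios scaling. No test was run on these bins, which share libraries across all their genes.

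**Figure D4:**
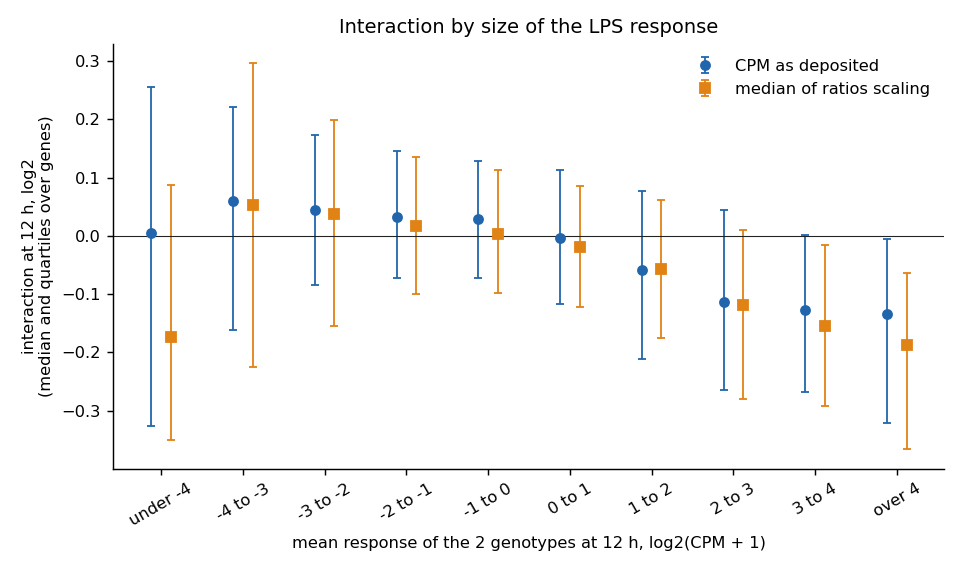
Median interaction at 12 h (points, log2) with the lower and upper quartiles (bars) for genes binned by their mean log2 response over both genotypes, for CPM and for median of ratios scaling. The medians are -0.13 by CPM and -0.19 by median of ratios in the bin over 16-fold and lie close to 0 for genes that changed little.

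Cytokines and chemokines were mixed. Of 22 cytokine genes tested, 20 rose in each genotype, beside 16.2% and 16.1% of all genes in wt and Treml4-/-. A lower interaction value in Treml4-/- was found for 18 and a higher one for 4, with a median of -0.16. The share of 81.8% lower stands beside 46.0% of all genes and 69.1% of those with a mean log2 response of 2 to 3. With a pseudocount of 0.1 CPM, on the deposited log2 CPM and with voom the count was 15 lower and 7 higher. Il6, the acute-phase cytokine, reached 41.5 and 72.8 CPM in wt and 34.3 and 28.7 CPM in Treml4-/- at 12 h from at most 0.0815 CPM at M0, with an interaction of -0.81 (95% interval -1.60 to -0.01). The alarmin Il33 reached 3.72 and 3.91 CPM in wt and 1.92 and 1.84 in Treml4-/- from 0 reads in all 4 M0 libraries (interaction -0.74, -1.34 to -0.15). The Il6 and Il33 levels at 12 h were lower in both Treml4-/- libraries than in either wt library. Tnf had 146 and 196 CPM in wt and 192 and 188 in Treml4-/- at 12 h, which overlap, and an interaction of 0.43 (-0.01 to 0.86). Wide intervals were left for Il1b, at -0.26 (-1.13 to 0.62), for the anti-inflammatory Il10, at 0.01 (-0.72 to 0.75), for the IL-12 subunit Il12b, at 0.19 (-0.32 to 0.69), and for interferon beta (Ifnb1), at -0.16 (-0.81 to 0.48).

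Of 22 chemokine genes 13 had a lower and 9 a higher value, with a median of -0.04. The share of 59.1% lower stands beside 46.0% of all genes and 74.7% of those with a mean log2 response of 3 to 4. Without either wt M0 library the count was 11 lower and 11 higher, with medians of -0.0066 without wt M0 replicate 1 and -0.0090 without wt M0 replicate 2, and the median was -0.10 without Treml4-/- M1-12 h replicate 1. At an unadjusted p under 0.05 there were 3 lower (13.6%, beside 1.44% of all genes) and 2 higher (9.09%, beside 2.38%). Ccl3, a CC chemokine that attracts monocytes and T cells, had 27.1 and 26.8 CPM in wt M0, 28.5 and 27.8 in Treml4-/- M0, 172 and 179 in wt at 12 h and 137 and 128 in Treml4-/- at 12 h. The M0 levels lay within 26.8 to 28.5 CPM, the 12 h levels did not overlap, and the interaction was -0.46 (95% interval -0.72 to -0.20). Its relatives Ccl4 and Ccl5 had interactions of -0.32 (-0.62 to -0.02) and -0.46 (-0.90 to -0.02). The neutrophil attractants Cxcl2 and Cxcl3 had positive values of 0.67 (0.11 to 1.23) and 0.64 (0.08 to 1.19). Cxcl3 had 10.3 and 10.2 CPM in wt and 20.1 and 13 in Treml4-/- at 12 h, whereas Cxcl2 had 69.9 and 69.3 in wt and 91.5 and 68.2 in Treml4-/-, which overlap. The 25 M1 effector genes had a median of -0.03 that changed sign in 5 of 21 alternatives.

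Glycolysis genes, which LPS is known to induce in macrophages, leaned towards a lower response in Treml4-/-. Of 20 members, 15 rose in wt and 14 in Treml4-/-, beside 16.2% and 16.1% of all genes. None passed the interaction test, and 17 (85.0%) had a lower value in Treml4-/-. This stands beside 46.0% of all genes and 61.6% of those with a mean log2 response of 1 to 2. At an unadjusted p under 0.05 there were 6 (30% against 1.44% of all genes), all lower. The list median was -0.22 and ran from -0.27 to -0.15 over the alternatives. From the replicate 1 libraries alone it was -0.36, and from the replicate 2 libraries alone -0.05. Gapdh had 2013 and 1785 CPM in wt M0, 2418 and 2108 in Treml4-/- M0, 3809 and 3677 in wt at 12 h and 3225 and 3389 in Treml4-/- at 12 h (interaction -0.43, 95% interval -0.75 to -0.12). Ldha, which converts pyruvate to lactate, had 719 and 760 CPM in wt M0 against 871 and 797 in Treml4-/- M0, and 2869 and 2897 against 2416 and 2560 at 12 h (interaction -0.38, -0.69 to -0.07). For both enzymes Treml4-/- was the higher genotype at M0 and the lower at 12 h, without overlap. The glucose transporter Slc2a1 had 105 and 120 CPM in wt M0 and 113 in both Treml4-/- M0 libraries, and 1166 and 1116 against 962 and 965 CPM at 12 h, with an interaction of -0.25 (-0.50 to -0.0015).

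Targets of HIF-1, the hypoxia factor that LPS also stabilises in macrophages, leaned the same way over all libraries, but the lean varied between replicates. Of 20 members, 18 (90%) had a lower value in Treml4-/-, beside 46.0% of all genes and 69.1% of those with a mean log2 response of 2 to 3. The median was -0.16, which was -0.32 without wt M0 replicate 1 and -0.11 without wt M0 replicate 2. From the replicate 1 libraries alone it was 0.01, and from the replicate 2 libraries alone -0.34. Hilpda, a lipid droplet protein, reached 255 and 283 CPM in wt and 188 and 196 in Treml4-/- at 12 h from 4.96 to 5.99 CPM at M0 (interaction -0.45, 95% interval -0.76 to -0.13). Adm, the vasodilator peptide adrenomedullin, reached 9.19 and 8.08 CPM in wt and 5.50 and 5.95 in Treml4-/- (interaction -0.53, -0.92 to -0.14). In both the 12 h genotypes were apart.

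Most cholesterol synthesis and liver X receptor (LXR) genes had a value on the other side. Of 29 members, 22 fell in each genotype, beside 60.4% and 59.6% of all genes in wt and Treml4-/-. A higher interaction value in Treml4-/- was found for 23 (79.3%, beside 54.0% of all genes), and the median was 0.16, with 0.09 to 0.24 over the alternatives. The members with an unadjusted p under 0.05 did not share this lean, since 2 (6.90%, beside 2.38% of all genes) were higher and 3 (10.3%, beside 1.44%) were lower. Mylip, the LXR target that degrades the LDL receptor, had 94.0 and 98.6 CPM in wt M0, 79.4 and 86.2 in Treml4-/- M0, 24.5 and 29.1 in wt at 12 h and 35.9 and 34.8 in Treml4-/- at 12 h, with an interaction of 0.61 (95% interval 0.17 to 1.05). Ch25h, which makes 25-hydroxycholesterol and is induced by interferon, went against the list at -0.98 (-1.68 to -0.28), with 72.6 and 124 CPM in wt and 41.0 and 46.1 in Treml4-/- at 12 h. Srebf2, a transcription factor of sterol synthesis genes, had an interaction of 0.15 (-0.16 to 0.46), and the cholesterol exporter Abca1 of 0.19 (-0.25 to 0.63).

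Resting and M2 macrophage genes had a median interaction of 0.15 over 19 genes, 14 of them higher in Treml4-/-, and the median was 0.05 without wt M0 replicate 1 and 0.23 without wt M0 replicate 2. Matrix and proteolysis genes had a median of 0.01 over 23 genes, which changed sign in 3 of 21 alternatives (-0.08 without wt M0 replicate 1, -0.12 without wt M1-12 h replicate 2 and -0.01 with median of ratios scaling). The matrix protein Fn1 had the highest value of that list, 1.11 (95% interval -1.49 to 3.71), and its wt M0 libraries were at 37.4 and 1.77 CPM, so that this value rested on wt M0 replicate 1. The 18 immediate early and AP-1 genes had a median of -0.17, which was -0.03 without wt M1-12 h replicate 2. The 20 genes that the paper names for this experiment had a median of -0.22, with 14 lower and 6 higher, and medians of -0.35 without wt M1-12 h replicate 1 and -0.10 without wt M1-12 h replicate 2, but they were chosen by the study on these libraries and are no independent evidence of a direction.

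**Figure D5:**
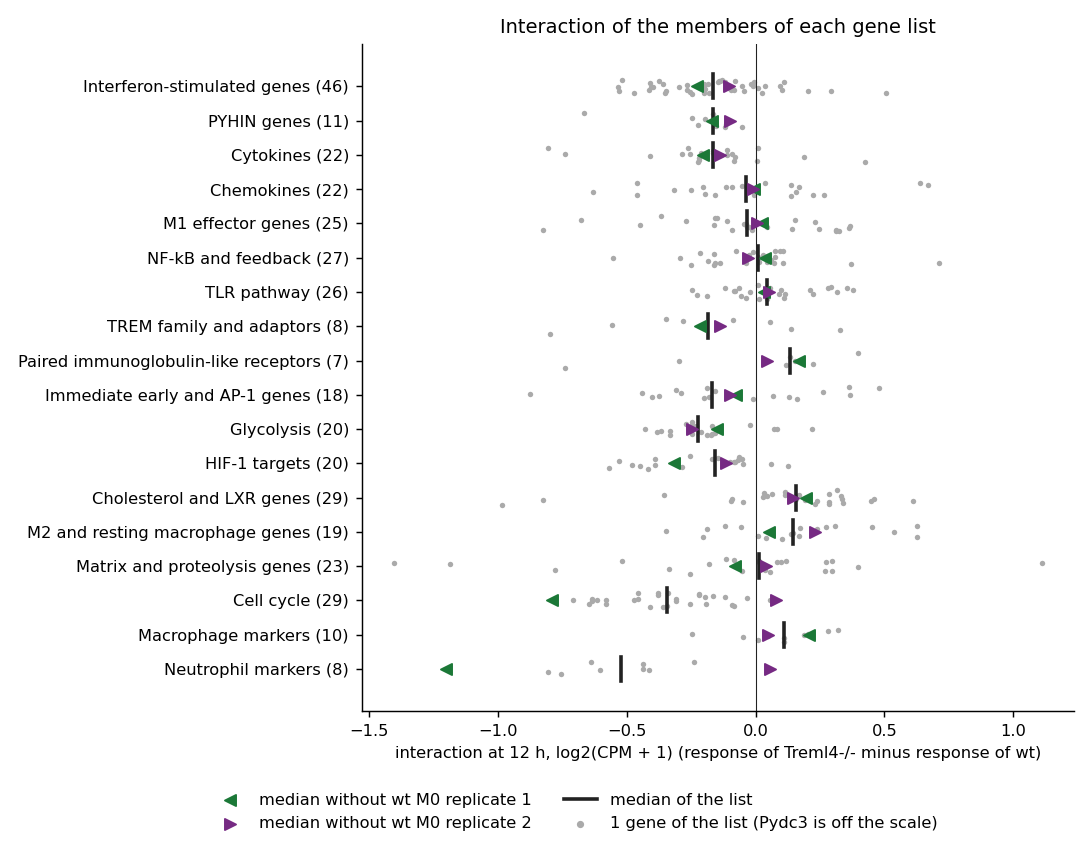
Interaction at 12 h (log2) of each member of the gene lists as a point, with the list median and the medians without wt M0 replicate 1 and without wt M0 replicate 2 (Pydc3 is off the scale). The cell cycle median moves from -0.34 to -0.79 and 0.08, while the interferon-stimulated median moves from -0.16 to -0.23 and -0.10.

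Cell cycle genes fell strongly in both genotypes, with median log2 responses of -3.88 (wt) and -4.34 (Treml4-/-), and their interaction turned on wt M0 replicate 2. Of 29 members 28 had a lower value in Treml4-/-, with a median of -0.34. The median was -0.79 without wt M0 replicate 1, with all 29 lower, and 0.08 without wt M0 replicate 2, with 10 lower. Top2a, the topoisomerase of dividing cells, had 326 and 129 CPM in wt M0, 298 and 328 in Treml4-/- M0, and 0.457 to 0.750 CPM at 12 h, so that wt M0 replicate 2 was the one library apart. The 8 neutrophil markers tested had a median of -0.52 in the same direction, with -1.20 without wt M0 replicate 1 and 0.06 without wt M0 replicate 2. The fit without wt M0 replicate 1 keeps wt M0 replicate 2 as the only wt M0 library. Its lower calls therefore favour genes in which that library is low, and they are no independent evidence of a difference.

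The strongest responders of wt cells gave no called difference in response between the genotypes. Nos2, the inducible nitric oxide synthase, rose from 3.39 and 6.90 CPM to 17297 and 16246 in wt and from 5.15 and 5.42 CPM to 15560 and 16725 in Treml4-/-, responses of 11.47 and 11.33 on the log2 scale with an interaction of -0.15 (95% interval -0.78 to 0.48). The chemokine Cxcl9 rose by 10.85 and 10.76 (interaction -0.09, -0.78 to 0.59), the prostaglandin synthase Ptgs2 by 10.13 and 9.97 (-0.16, -0.81 to 0.49), and the acute-phase protein Saa3 by 9.92 and 9.90 (-0.02, -0.36 to 0.33). Serpina3g, a serine protease inhibitor, and the guanylate-binding protein Gbp4 had interactions of 0.21 (-0.23 to 0.65) and -0.04 (-0.41 to 0.33). Of the 8 largest rises, only Ccl5 had an interval that left out 0, and this rested on the wt M0 libraries. Ccl5 was -0.46 with both, -0.22 without wt M0 replicate 1 and -0.70 without wt M0 replicate 2. Without wt M0 replicate 2 the unadjusted limma p of Nos2 (-0.57) and Cxcl9 (-0.55) was also under 0.05. Libraries of both genotypes overlapped at 12 h for Nos2, Cxcl9 and Gbp4. The 8 largest falls were those of the cell division genes Top2a, Kif20a, Ccna2, Racgap1, Plk1, Ccnb2 and Cdc20 and of Zfyve28, a regulator of receptor endocytosis. The mitotic kinase Plk1 fell by 6.26 in wt and by 6.47 in Treml4-/- (interaction -0.22, -0.87 to 0.43).

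The same comparison at 8 h used the same M0 libraries and is therefore given side by side only. There, too, 1 gene (0.00827%) passed, and it was Pydc3, with an interaction of 4.38 from 8.50 and 10.1 CPM in wt and 285 and 366 CPM in Treml4-/- at 8 h. The median interaction of the interferon-stimulated genes was -0.04 at 8 h and -0.16 at 12 h, with 24 and 37 of 46 lower in Treml4-/-. Glycolysis genes had medians of -0.29 and -0.22, with 17 of 20 lower at each time. PYHIN genes were on opposite sides, with medians of 0.18 at 8 h and -0.17 at 12 h and 2 and 10 of 11 lower. The cell cycle median was -0.11 at 8 h and -0.34 at 12 h. Whether any of these medians differed between the times was not tested.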

How the data were processed

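Gene-level values were analysed for 12 stranded, poly(A)-selected, paired-end RNA-seq libraries. The submitters' processing notes name STAR and the build mm10, and the counter's strand setting is not given in the sources used here. The deposited values were log2 CPM, and the values themselves show that the authors added a prior count of 0.25 reads. All values (100%) gave whole reads within 0.01 when this was undone, and CPM was recomputed from the reads.

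A mean per genotype and time was fitted to log2(CPM + 1) over all 12 libraries with limma 3.58.1 (R 4.3.3; eBayes with trend) for genes at 1 CPM or more in at least 2 libraries. Fold changes on this scale understate the changes of low genes. An interaction can be over- or understated where a group is low, as for Pydc3, at 5.39 against 2.58 on the deposited log2 CPM. The Benjamini-Hochberg adjustment covered the 12086 genes tested, and calls needed an adjusted p under 0.05 and 1.4-fold. Unadjusted p-values, standard errors and 95% intervals are limma's. CPM is not scaled by gene length, so levels are compared within genes. The fit was planned for CPM and kept for the log2 values after this conversion.

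Named genes were Treml4, every called gene, the 10 genes in each direction with the lowest unadjusted p among those past 1.4-fold with non-overlapping same-numbered responses, the 8 largest rises and the 8 largest falls in wt, and members of pathway and marker lists. Members and lists were chosen with earlier results of these data known. Positions come from GENCODE (GRCm38) and promoters from RefSeq. The scripts were tested on simulated data. Alternatives were another pseudocount, the deposited log2 CPM, other filters, scalings and variance models, voom, replicate blocks and leaving out each library. Replicate blocks, the fit without trend, the fit of only the 8 libraries and no minimum fold could not change the interaction values. Calculations outside R used Python 3.11.15, numpy 2.4.6 and pandas 2.3.3, and plots matplotlib 3.10.9.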

Additional observations from a re-analysis of the deposited data

Results flagged for a closer look

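Pydc3 was the gene whose response to LPS differed between wt and Treml4-/- by a test of the difference itself. Its interaction was 5.39 on the log2(CPM + 1) scale at 12 h and 4.38 at 8 h, and both passed at an adjusted p under 0.05 (limma, Benjamini-Hochberg adjustment). Neither passed on the deposited log2 CPM or with voom, where the 12 h value was 2.58 and 2.74. Both values use the same M0 libraries, in which Pydc3 rested on 5 reads in wt and 61 in Treml4-/-, all under the 1 CPM added.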

How the results depend on the processing

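The count of genes passing the 12 h interaction test was 1 in the reported analysis and under most alternatives. It was 0 on the deposited log2 CPM (461 genes at an unadjusted p under 0.05) and 0 with voom (422), and 2 with quantile normalization, where Treml4 joined Pydc3 at -1.54. Leaving out 1 library at a time gave 1 to 33, the largest without wt M0 replicate 1. The 8 h count was 1, against 0 on the deposited log2 CPM (788 at an unadjusted p under 0.05), 0 with voom (740), 2 without the filter on low values and 1 to 3 with a library left out, 2 without wt M1-8 h replicate 1 and 3 without wt M0 replicate 2. Pydc3 was 2.58 on the deposited log2 CPM and 2.74 with voom, under the threshold in both, and Pecam1 passed only without wt M0 replicate 1. Of 775 alternative values of named genes, 738 kept their direction and their side of the threshold, and 33 changed direction, none of them a called value. The 775 include replicate blocks, the fit without trend, the fit of only the 8 libraries and no minimum fold, which could not change a direction.

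Values that changed direction were Rab4a, at -0.24 on the deposited log2 CPM and -0.21 with voom. Quantile normalization turned Nos2 to 0.0043 and Saa3 to 0.0013. A pseudocount of 0.1 CPM turned Kif20a to 0.30, Plk1 to 0.21 and Ccnb2 to 0.033, the deposited log2 CPM turned Kif20a to 0.40, Ccna2 to 0.16, Plk1 to 0.47 and Ccnb2 to 0.070, and voom turned them to 0.40, 0.12, 0.44 and 0.065. With 1 library left out the ranges were -0.57 to 0.27 for Nos2, -0.55 to 0.36 for Cxcl9, -0.48 to 0.16 for Ptgs2, -0.20 to 0.17 for Saa3, -0.15 to 0.072 for Gbp4, -1.14 to 0.19 for Top2a, -0.42 to 0.32 for Kif20a, -0.96 to 0.20 for Ccna2, -0.78 to 0.14 for Racgap1, -0.59 to 0.15 for Plk1, -0.46 to 0.22 for Ccnb2 and -0.63 to 0.043 for Cdc20. The cause of these changes was not tested.

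Deviations of same-numbered libraries of the genotypes correlated across genes by -0.26 at M0, 0.30 at 8 h and 0.06 at 12 h, not over 0.1 at each time, so the numbers were not taken as pairs across genotypes. Between the times of a genotype the correlations ran from -0.27 to 0.46, with M0 against 12 h at 0.06 in wt and -0.20 in Treml4-/-. With a replicate block, shared by the genotypes or separate in each, the 12 h interaction count was 1 and the wt response count 9275 against 9264 without it. With 2 libraries in each group, 361 genes were past 1.4-fold and only Pydc3 passed.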
